A study of Macaca mulatta with 38 samples.

Results

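The myeloid-only barcodes are 334 of the 44423 barcodes counted in blood cells of the rhesus macaque ZL34, a male of 4 years. Such a barcode is a stretch of DNA letters that a lentiviral vector writes into the genome of a stem or progenitor cell and that passes to every descendant. The members were chosen by their counts. Each had reads in at least 1 Mono or Gr library of day 119 or 187, was listed at 0 in all 17 T and B libraries, and stayed below 0.2% of reads in every Mono and Gr library. 6003 barcodes had reads in Mono or Gr of day 119 or 187, 5944 of these stayed below 0.2%, and 5.62% of the 5944 were members. The other 5610 had reads in T, in B or in both.

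The mobilised CD34+ cells of the animal were transduced with the barcode library at a multiplicity of infection of 25 and returned to it after TBI, and cidofovir was dosed at 5 mg/kg each week. All libraries come from peripheral blood of this 1 animal and share that treatment, so they are serial samples and not biological replicates. The labels name 7 Mono, 7 Gr, 5 nRBC, 1 EOS, 1 CD34p, 9 T and 8 B libraries. Mono and Gr, read here as monocytes and granulocytes, were sampled on days 32, 119, 187, 266, 365, 494 and 553. Column sums ran from 1922035 to 3786747 reads in Mono, 1438491 to 3805440 in Gr and 766039 to 3464834 in T and B. No count from 1 to 100 occurs in the table, so a listed 0 is taken as 100 reads or fewer, a limit inferred from the counts. At a multiplicity of infection this high a cell can carry several barcodes, so a barcode is not the same as a clone.

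Monocytes and granulocytes live briefly in blood and are renewed from progenitors in the marrow, so their barcodes follow which progenitors are active at the time of sampling. T cells pass through the thymus and can persist long after the cell that made them has stopped dividing. After a transplant, short-lived progenitors supply much of the first blood cells and longer-lived stem cells take over later. A barcode seen in myeloid cells alone can belong to a progenitor that makes no lymphocytes, or to a multipotent cell whose lymphoid descendants are too few to be counted. This is background, and the counts below do not separate these cases.

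The sequences of 10 members are given because the values below turn on them: the highest shares of days 119 to 266, the longest listings, the highest members of a single lineage, the highest of day 32 and the member found in nRBC. The capitals mark the variable bases between the leading 6 bases and the start of the sequencing adapter, and barcodes are numbered by their mean percent over the 38 libraries.
bc8232: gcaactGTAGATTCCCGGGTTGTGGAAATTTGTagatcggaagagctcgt
bc6093: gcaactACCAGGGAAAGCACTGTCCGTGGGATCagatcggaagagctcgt
bc7617: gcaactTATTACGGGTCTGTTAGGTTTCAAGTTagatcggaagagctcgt
bc6690: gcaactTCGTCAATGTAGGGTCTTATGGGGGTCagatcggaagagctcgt
bc8489: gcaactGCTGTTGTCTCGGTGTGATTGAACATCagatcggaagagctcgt
bc8524: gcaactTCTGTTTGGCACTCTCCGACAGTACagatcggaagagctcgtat
bc15422: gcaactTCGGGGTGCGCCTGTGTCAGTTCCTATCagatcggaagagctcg
bc8953: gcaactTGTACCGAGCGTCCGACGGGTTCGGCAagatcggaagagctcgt
bc9199: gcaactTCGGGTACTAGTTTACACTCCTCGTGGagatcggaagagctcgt
bc10378: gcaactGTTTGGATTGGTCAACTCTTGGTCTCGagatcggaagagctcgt

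The members were rare and lay close to the limit of listing. Their highest share in any Mono or Gr library had a median of 0.00734% and ran from 0.00335% to 0.0273%. The 0.2% limit therefore removed nothing, since its 3 nearest members, bc8953, bc8232 and bc6093, reached 0.0273%, 0.0241% and 0.0236%, and 0 barcodes without T and B reads lay at or above it. The highest read count of a member in these libraries was 186.5 at the median and 695 at most, and 152 of 334 members (45.5%) reached 200 reads. Members grew scarcer as share rose. They were 10.4% of the 843 low myeloid barcodes whose highest share at days 119 and 187 was under 0.005%, 6.99% of 2690 at 0.005 to 0.01%, 3.48% of 1525 at 0.01 to 0.02%, 0.654% of 765 at 0.02 to 0.05% and 0 of 121 above that. A rarer barcode is also more easily missed in T and B, and its part in this order was not tested.

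The absence from T and B holds only down to the limit of each library. For day 187 a listed 0 could hide up to 0.00312% of T reads and 0.00328% of B reads. The limits were widest on day 494, with 0.0131% for T and 0.0127% for B. On day 187 the share exceeded both limits of that day in 126 of 127 members listed in Mono and in 240 of 240 listed in Gr. It exceeded the larger limit more than 5 times over in 2 members in Mono and 8 in Gr. The widest gap was that of bc8232. Its share in Gr of day 187 was at least 7.33 times any share hidden in T or B of that day. These comparisons use shares of all reads. On day 187 barcodes at or above 0.2% took 56.4% of T, 1.95% of B, 33.6% of Gr and 73.2% of Mono reads. Among the reads of barcodes below 0.2% alone, Gr shares would lie closer to the T limit and Mono shares farther from it. How many members would then exceed both limits was not tested. On day 119, 2 of 4 members in Mono and 9 of 24 in Gr exceeded both limits of the day, so the other 17 listings were at shares that a 0 in B could hide. Over all days, 54 members (16.2%) had a highest share above 0.0131%, the largest limit of any T or B library.

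By lineage, 141 members (42.2%) were listed in both Mono and Gr at some time, 62 (18.6%) in Mono and in no Gr library, and 131 (39.2%) in Gr and in no Mono library. Members of both lineages were the most abundant and the longest listed. Their median highest share was 0.0105%, against 0.00521% for Mono only and 0.00611% for Gr only. Of the 141, 96 were listed in 3 or more libraries, whereas 50 of the 62 Mono-only members and 76 of the 131 Gr-only members were listed in a single library. A barcode listed once cannot be in both lineages, so the classes depend on how often a barcode was listed. They also rest on single libraries. With Mono of day 187 left out of the choice there were 252 members, 0% Mono only and 52.0% Gr only, and with Gr of day 187 left out there were 150, with 41.3% Mono only and 6.00% Gr only. Joint listing was on the same day for 83 of the 141, and for the other 58 the Mono and Gr listings fell on different days.

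Day by day, the members were listed more often in Mono than in Gr at day 32, and more often in Gr from day 119 to day 266. In Mono the numbers listed on days 32, 119, 187 and 266 were 66, 4, 127 and 70, with 0 on days 365, 494 and 553. In Gr they were 37, 24, 240 and 124, and again 0 on the last 3 days. All barcodes of these libraries had the same order of lineages. On days 32, 119, 187 and 266 the libraries listed 10210, 808, 3077 and 3670 barcodes in Mono, and 8820, 2013, 4729 and 4871 in Gr. The order is thus not particular to the members. Summed over the members, the shares of Mono reads on days 32, 119, 187 and 266 were 0.622%, 0.0280%, 0.784% and 0.383%. Their sums in Gr were 0.424%, 0.136%, 1.81% and 1.03%. Day 187 was the highest day in both lineages and day 119 the lowest of the 4, although the rule chose on both days. A high value at day 187 is favoured by the choice, since 324 members were listed in Mono or Gr of that day.

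Abundant barcodes left different amounts of room for rare ones in these libraries. On day 119 the barcodes at or above 0.2% took 94.0% of Mono reads and 85.1% of Gr reads. They took 73.2% of Mono and 33.6% of Gr reads on day 187, and 68.4% of Mono and 28.3% of Gr reads on day 266. Counted among the reads of barcodes below 0.2% alone, the members held 2.92% in Mono and 2.73% in Gr of day 187. For day 266 this came to 1.21% in Mono and 1.43% in Gr, and for day 119 to 0.466% in Mono and 0.913% in Gr. On that scale the Mono and Gr shares at day 187 lay closer together than the shares of all reads, and day 119 stayed below day 187 and day 266 in both lineages. At day 32, where barcodes at or above 0.2% took 0% of Mono reads and 0.457% of Gr reads, the members held 0.622% and 0.426% of the low reads. At days 365, 494 and 553 such barcodes took 98.1% or more of Mono reads and 99.6% or more of Gr reads, and only 12 to 197 barcodes were listed in Mono and 18 to 69 in Gr. How far the dominance of a few barcodes set the listing of members was not tested.

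Where a member was listed in Mono and Gr on the same day, which share was the larger depended on the reads it was taken from. Of all reads, the Gr share was more often the larger. At day 187, 43 members were listed in both, with a median log2 ratio of Mono to Gr of -0.26 and a range from -2.19 to 1.19. The Mono share was higher in 16 of them and the Gr share in 27. At day 266 the median over 45 members was -0.79, with Mono higher in 13 and Gr in 32. At day 32 it was -0.79 over 11 members, with Mono higher in 3 and Gr in 8. Taken from the reads of barcodes below 0.2% alone, a scale chosen after seeing the data, the median was 1.05 at day 187, with Mono higher in 39 members and Gr in 4. On that scale it was 0.39 at day 266, with Mono higher in 33 and Gr in 12, and -0.80 at day 32, with Mono higher in 3 and Gr in 8. The direction thus turned at days 187 and 266 and not at day 32. The members share their 2 libraries on each day, so these counts describe the pairs of libraries.

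No member was shown to differ between Mono and Gr over the 7 days. edgeR's quasi-likelihood test, with day as a block and Benjamini-Hochberg adjustment, was run over the 2914 barcodes that reached 0.01% of reads in 2 or more of the 14 libraries, and called 0 of them at adjusted p under 0.05, a background of 0%, with 37 at an unadjusted p under 0.05. The filter kept 31 of the 334 members. Of these, 0 were called and 0 had an unadjusted p under 0.05. DESeq2 called 20 of the 2462 barcodes it tested, 2 higher and 18 lower in Mono, and 0 of the 27 members among them. At so low a rate of calls, 0 among 27 says nothing particular about the members. Approximate standard errors, worked back from each log2 change and the F value of its test, ran from 1.58 to 3.52 in the 30 members that had one. By these, changes of several log2 units could not be detected. The test takes serial libraries of 1 animal as independent, which they are not.

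Among single members, the highest shares on the days of the rule were in Gr of day 187. bc8232 held 0.00609% and 0.00394% in Mono of days 32 and 266, and 0.0241% and 0.00744% in Gr of days 187 and 266. It was listed at 0 in the other 10 Mono and Gr libraries. bc6093 held 0.0111% in Mono at day 266, and 0.0236% and 0.0224% in Gr at days 187 and 266. Its Gr share was thus nearly level across those 2 days, while that of bc8232 was lower at day 266 than at day 187. bc7617 held 0.00381% in Mono at day 266, and 0.00957%, 0.00913% and 0.0226% in Gr at days 119, 187 and 266. bc7874 held 0.00541% in Mono at day 266, and 0.0168% and 0.0213% in Gr at days 187 and 266. bc9649 held 0.00579% and 0.00368% in Mono at days 187 and 266, and 0.00611% and 0.0196% in Gr. These 3 had their highest share in Gr of day 266. bc10003 instead held 0.00485% in Mono at day 187, and 0.0221% and 0.00695% in Gr at days 187 and 266.

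6 members were listed in 5 of the 14 libraries, the most for any member, and 1 of them was highest in Mono of day 187. This was bc6690, with 0.0209% and 0.00355% in Mono at days 187 and 266, and 0.00659%, 0.0151% and 0.00544% in Gr at days 119, 187 and 266. bc7811 held 0.00864%, 0.00597% and 0.00883% in Mono at days 32, 187 and 266, and 0.0105% and 0.01004% in Gr at days 187 and 266. Its 5 listed shares thus lay close together, but it was not listed throughout. It was at 0 in Gr of day 32 and in Mono and Gr of day 119. On day 119 a 0 allows up to 0.00382% of Mono reads and 0.00372% of Gr reads, below each of its listed shares. However, barcodes at or above 0.2% took 94.0% of Mono and 85.1% of Gr reads that day, against 73.2% and 33.6% on day 187. Whether bc7811 itself was lower at day 119 was not tested. bc8489 held 0.00676% in Mono at day 32, and 0.00883%, 0.00428%, 0.0133% and 0.00716% in Gr at days 32, 119, 187 and 266. bc10138 held 0.01004% and 0.00473% in Mono at days 32 and 187, and 0.00402%, 0.00731% and 0.00734% in Gr at days 119, 187 and 266. bc10376 held 0.00352% in Mono at day 266, and 0.00890%, 0.00506%, 0.00855% and 0.00656% in Gr at days 32, 119, 187 and 266. bc8489, bc10138 and bc10376 are among the 6 members listed on all 4 days from 32 to 266. Over the 14 libraries the pairwise Pearson's r of log2(percent + 0.01) among the 6 members listed 5 times ran from 0.25 to 0.94, over 15 pairs that share all libraries, and 0 groups formed at r of at least 0.95.

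The members of a single lineage were mostly seen once or on 2 days. bc8524, never listed in Mono, held 0.00719%, 0.0204% and 0.0126% of Gr reads at days 119, 187 and 266. bc11427 held 0.0101% and 0.0193% of Gr reads at days 187 and 266. Among the Mono-only members the 3 highest, bc15422, bc15875 and bc16910, had the same course. They held 0.0162%, 0.0153% and 0.0137% in Mono of day 32, and later 0.00461%, 0.00473% and 0.00488% in Mono of day 187. For these 3 the day 32 share was the higher. Of all Mono-only members 50 were listed at day 187 alone, as were 72 of the Gr-only members, and 4 of 62 Mono-only members (6.45%) reached day 266, against 45 of 131 Gr-only members (34.4%).

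92 of the 334 members (27.5%) had been listed in Mono or Gr at day 32, so the group is not confined to barcodes that appeared after that day. The day 32 listing was in Mono alone for 55, in Gr alone for 26 and in both for 11. Many members from day 32 were listed in the other lineage later, alone or beside the first. Of the 55 seen in Mono alone, 46 were later listed in Gr, and of the 26 seen in Gr alone, 15 were later listed in Mono. These proportions are close to those of all 334 members, of which 272 (81.4%) were listed in Gr and 203 (60.8%) in Mono. A listing after day 32 was itself required by the rule. 80 of the 92 were not listed at day 119. The rule required a listing at day 119 or 187, so their return at day 187 was fixed by the choice. The share at day 32 was higher than on any later day for 63 of the 92. Libraries of day 32 had a listing limit of 0.00520% in Mono and 0.00695% in Gr, against 0.00301% and 0.00387% at day 187, so a member at the median share could be missed more easily at day 32. With 200 reads as the smallest listed count in all libraries, T and B included, the rule gave a different set of 393 barcodes. That set includes barcodes with fewer than 200 reads in T or B, and 9.16% of it was listed at day 32. Among the 54 members above 0.0131% it was 50%.

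The highest member at day 32 was bc8953, with 0.0273%, 0.00507% and 0.00569% in Gr of days 32, 187 and 266, and no Mono listing. bc9199 held 0.0208% and 0.00464% in Mono at days 32 and 266, and 0.0115% in Gr at day 187. It thus alternated between Mono and Gr over its 3 listings. bc10375 held 0.00650% and 0.00573% in Mono at days 32 and 187, and 0.0204% in Gr at day 32. bc9998 held 0.0199% in Mono at day 32, and 0.00751% and 0.00654% in Gr at days 32 and 187. bc14391 held 0.0175% in Mono at day 32 and 0.00503% in Gr at day 187. In all 5 the day 32 share was the highest, which their choice by that share makes likely.

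Listing was short. 133 members (39.8%) were listed on 1 day, 150 on 2 days, 45 on 3 days and 6 on 4 days. The commonest pattern was day 187 alone, with 128 members, followed by days 187 and 266 with 99, days 32 and 187 with 48, and days 32, 187 and 266 with 32. The last listing was day 119 for 5 members, day 187 for 180 and day 266 for 149 (44.6%). 41 members spanned the 234 days between day 32 and day 266. At day 365 all were listed at 0, where a 0 allows up to 0.00318% of Mono reads and 0.00276% of Gr reads. Members seen at day 32 were listed at day 266 in 41 of 92 cases (44.6%), and the others in 108 of 242 (44.6%). By lineage, 28 of the 127 members in Mono of day 187 (22.0%) were listed in Mono of day 266, and 108 of 240 in Gr (45.0%). Of the 108 in Gr, 54 were higher and 54 lower at day 266 than at day 187, and of the 28 in Mono 10 were higher and 18 lower. Among the low myeloid barcodes with T or B reads, 57.2% of 2891 in Mono of day 187 were listed in Mono of day 266. In Gr it was 70.8% of 4431, so there too the Mono value was the lower.

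The members were set beside the low myeloid barcodes that also had T or B reads. Of the members 27.5% were listed at day 32 (exact 95% interval 22.8 to 32.7, for counting error only), against 28.7% of the 129 with T and no B, 39.5% of the 1509 with B and no T and 44.4% of the 3972 with both. At day 266 or later 44.6% of the members were listed (39.2 to 50.1), against 47.3%, 63.2% and 77.6%. The share listed in both Mono and Gr was 42.2% in the members, against 47.3%, 63.2% and 78.1%. On all 3 measures the members lay nearest to the barcodes with T and no B, and farthest from those with both. The sets differ in abundance, with a median highest share at days 119 and 187 of 0.00568% in the members, against 0.00573%, 0.00638% and 0.00963%. They were not tested against each other, because barcodes of 1 animal are not replicates of a condition.

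At like abundance the difference from the 5610 barcodes with T or B reads was smaller for late listing and about as large for day 32. Among barcodes of 0.005 to 0.01%, 30.9% of 188 members and 42.6% of 2502 others were listed at day 32, and 43.1% and 63.5% at day 266 or later. At 0.01 to 0.02% the values were 32.1% of 53 members and 43.2% of 1472 others at day 32, and 66.0% and 87.5% at day 266 or later. Under 0.005% they were 18.2% of 88 members and 39.7% of 755 others at day 32, and 31.8% and 47.2% later. In these ranges the barcodes with T and no B lay nearer to the members than all others did. At 0.005 to 0.01%, 30.1% of 73 of them were listed at day 32 and 43.8% at day 266 or later. At 0.01 to 0.02% it was 35.7% of 14 and 57.1%, and under 0.005% it was 26.5% of 34 and 38.2%. At 0.02 to 0.05% there were only 5 members, bc8232, bc6093, bc10003, bc6690 and bc8524, of which 1 was listed at day 32 and all 5 at day 266. With 200 reads as the smallest listed count in all libraries, barcodes with fewer T or B reads than that join the members. The difference at day 32 from barcodes with 200 or more reads in T or B, over all shares, was then -7.40 percentage points. It was -15.2 points as listed. At day 365 0 of 334 members were listed in Mono, against 120 of 5610 others, and 0 in Gr, against 39. The absence was not particular to the members, since 0 of the 129 with T and no B were listed in either lineage. Of the 1509 with B and no T, 6 were listed in Mono and 3 in Gr, and of the 3972 with both, 114 and 36.

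Outside the 4 lineages of the rule the members were almost absent. bc10378 was the single member listed in nRBC, with 0.00691% of reads at day 393 (263 reads). It held 0.00419% in Mono at day 266, and 0.0128% and 0.00863% in Gr at days 187 and 266. The other 4 nRBC libraries, EOS of day 494 and CD34p of day 553 listed 0 members, with limits of 0.00261% to 0.00283% of reads. Among the 5610 barcodes with T or B reads, nRBC of day 393 listed 147, EOS 8 and CD34p 1. These libraries are nearly filled by a few barcodes, since those at or above 0.2% took 98.2% to 99.9% of their reads.

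In sequence the members resembled the other low myeloid barcodes. 329 of 334 (98.5%) began with the commonest leading bases, gcaact, against 97.7% of the barcodes with T and no B, 98.0% of those with B and no T and 98.1% of those with both. The adapter start was found in 315 members, after 33 bases in 247 of them (78.4%), against 81.5%, 79.3% and 81.0%. The variable bases of the members were 30.7% G, 30.0% T, 22.6% C and 16.7% A, against 30.9%, 30.1%, 22.7% and 16.3% in the barcodes with T or B reads. 0 members lay within 3 mismatches of a barcode of the same length with at least 10 times their reads, and the nearest such barcode was 9 mismatches away. With insertions and deletions allowed, the smallest distance over 331 members was 5. Any 2 members of equal length differed at 9 bases or more, with a median of 20. 3 members had fewer than 15 variable bases, and of these bc37485 had 1. It was listed in Mono of day 187 alone, at 0.00458%. These 3 were singled out after their values were seen.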

How the data were processed

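The authors deposited 1 table of read counts for 44423 sequences of 50 bases in 38 libraries. The unit was taken from the values, and how sequences were read, merged or dropped is not stated in the labels. Per the labels' protocols, barcode retrieval used 200 ng of DNA and 28 PCR cycles. Counts above 0 start at 101, and at 117 in the library with the highest start. Column sums, 766039 to 3832849 reads, therefore cover listed barcodes only. Reads carry no molecular identifiers, so intervals, which are exact Clopper-Pearson at 95%, cover counting error only.

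Each library was grouped by the cell type and day of its labels, and no batch is given there. Shares are percent of the column sum. The members, comparison sets and lists were chosen with earlier results of these data known. Listing is described without a test, because the rule used those values and barcodes of 1 animal are not replicates. Mono was tested against Gr with edgeR 4.0.16 (DESeq2 1.42.0 as an alternative), with the column sum as library size and the same day as the pairing, given by the labels. On simulated counts the test found most of the large changes put in at a moderate spread, and none at the spread of these libraries. Named barcodes are the 10 members with the highest share, the 5 in most libraries, the 3 highest of each single lineage, the 5 highest at day 32 and at day 266 or later, those in nRBC, EOS or CD34p, and the 3 nearest the limit. Bases before the adapter are those before its first 13 bases.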

Additional observations from a re-analysis of the deposited data

Results flagged for a closer look

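8 sets of values over the days of a lineage were examined for a value far from the rest, and chance marks about 1 set in 20. The members' part of the reads of barcodes below 0.2% in Mono stood out at day 187, at 2.92%, against 0.622%, 0.466% and 1.21% on days 32, 119 and 266. The members were chosen on days 119 and 187, which gave the lowest and the highest of these 4 values. Of the members, 324 were listed in Mono or Gr of day 187, so the choice itself favours a high value on that day. The chance rate therefore does not apply to this set, and no conclusion is drawn from the mark.

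bc10378 had 263 reads in nRBC of day 393, a library that the rule did not use, where a listed 0 allows 100 reads. It was the single member with reads in nRBC, EOS or CD34p.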

How the results depend on the processing

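An upper limit of 0.1% or none, sequences cut before the adapter, and sequences 1 mismatch apart summed each gave 334 members and the same splits, and leaving T and B of day 494 out of the rule gave 337. At 200 reads in place of 101 as the smallest listed count in all libraries, T and B included, there were 393 members. Barcodes with fewer than 200 reads in T or B are among them, since only 152 of the 334 members reached 200 reads. Of the 393, 29.5% were listed in both Mono and Gr, 12.0% in Mono only, 58.5% in Gr only, 9.16% at day 32 and 44.3% in 1 library. The day 32 difference from barcodes with T or B reads was -7.40 points, against -15.2 as reported. The 54 members above the largest limit of T or B were listed in both lineages in 72.2%, in Mono only in 5.56%, in Gr only in 22.2%, at day 32 in 50%, at day 266 or later in 64.8% and in 1 library in 7.41%. Leaving 1 of the 4 libraries of days 119 and 187 out of the choice gave 150 to 333 members, with 150 without Gr of day 187 and 252 without Mono of day 187. The percent in both then ran from 42.0 to 52.7, in Mono only from 0 to 41.3, in Gr only from 6.00 to 52.0, at day 32 from 27.3 to 30.7, in 1 library from 30.2 to 37.8 and at day 266 or later from 43.3 to 53.2. Each single-lineage share was lowest without day 187 of its own lineage and highest without day 187 of the other, so the split between Mono only and Gr only rests on those 2 libraries.

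Within shares under 0.005% the day 32 difference was -21.6 points, and at 0.02 to 0.05%, with 5 members, it was -24.2. The late difference was -28.5 points as reported, -15.3 under 0.005%, -20.4 at 0.005 to 0.01%, -21.5 at 0.01 to 0.02%, 1.84 at 0.02 to 0.05% and -18.9 as the mean over these shares weighted by members. In Mono against Gr, edgeR called 0 barcodes under each filter, with TMM factors, without a day, and without day as a replicate block. Without that block, 120 had an unadjusted p under 0.05 in edgeR's test, 8 of them members. DESeq2 called 20 of 2462. On simulated counts at the spread of these libraries edgeR's test found none of the large changes put in. Its repeated 0 therefore does not show that the settings agree. With shares of the reads of barcodes below 0.2%, chosen after seeing the data, the median log2 ratio of Mono to Gr turned to 1.05 at day 187 and 0.39 at day 266. Depth limits the absence from T and B, since a 0 hides up to 100 reads.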

Other observations

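3715 barcodes had reads in Mono or Gr and in no T or B library, with no limit on share. 3201 of them were listed at day 32 alone, and 180 were listed at day 266 or later without a listing at day 119 or 187. The members are thus a small part of the barcodes seen only in myeloid cells, and most of the others belong to day 32.

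Chosen after its values were seen, bc14038 was the single member listed in both Mono and Gr at day 119, with 0.00954% and 0.0136%, and it was listed on no other day.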
